A study of Mus musculus with 9 samples.

Results

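The 10 genes described here encode transcription factors that specify blood and myeloid cells: 4 members of the C/EBP family (Cebpa, Cebpb, Cebpd and Cebpe), the ETS factor gene Spi1 (which encodes PU.1), the repressor gene Gfi1, the 3 Runx genes and the stem cell factor gene Tal1. They were chosen by name, not by a measured value, but with earlier results of these data known. All 10 were found among the 21887 protein-coding genes of the reference table. Each gene was read as its span on mm10 with 5 kb added on both sides, which is called its window here, and was described in the H3K27me3 interval lists of 8 libraries.

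The libraries came from bone marrow of transplanted female mice given metformin, a drug for diabetes, or vehicle for 1 month. Lin-ckit+ cells, a fraction that holds blood stem cells and early progenitors, were enriched from it and used without culture. The RH groups had the genotype Dnmt3a fl-R878H/+ and the WT groups Dnmt3a+/+, where Dnmt3a encodes a DNA methyltransferase. Both genotypes were on C57BL/6 and both were crossed to Mx1-cre, so the controls also carried the Cre transgene, whose interferon-inducible promoter is not restricted to blood. The groups were RH with metformin (RH MET), RH with vehicle (RH VEH), WT with metformin (WT MET) and WT with vehicle (WT VEH), with 2 libraries each. The labels do not state which cells were transplanted, the share of marrow that derived from them, or whether the 2 libraries of a group came from separate animals. P-values are therefore set against the spread between libraries, which could be technical.

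H3K27me3, trimethylation of lysine 27 of histone H3, is laid down by Polycomb repressive complex 2 and lies in broad domains over developmental genes that are not transcribed, often around CpG-rich starts. Hematopoietic stem cells depend on Runx1 and Tal1 for their formation in the embryo, and myeloid commitment depends on Cebpa and Spi1. Later granulocyte stages use Cebpe and Gfi1. Runx2 is best known as the regulator of bone formation and Runx3 as a regulator of T cell lineages, so that the paralogs of one family have their main roles in different tissues. In a bulk cell population a mark on a share of the cells and a weaker mark on all of them cannot be told apart.

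The lists held 11620 to 16879 intervals and covered 80.0 to 186 Mb per library, and intervals overlapped the windows of 33.1% to 41.3% of all protein-coding genes. RH VEH 1 was the lowest library in all 3 measures, and 6 of the 10 genes had an interval there, against 8 to 10 in each other library. Each interval has a summit height, a whole number which the authors deposited with no unit given, with a median of 12 in RH VEH 1 and of 14 to 17 in the other libraries. Read depth is unknown, so a missing interval means only that none was listed. Of the anchors, Hoxd11, a homeobox gene of limb and axis patterning, was covered over 100% of its window in all 8 libraries, and Actb and Gapdh, which every cell uses, were at 0%.

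The 10 genes differed widely in how much of the window was covered. All 8 libraries had an interval at 6 of the 10 genes (Cebpa, Cebpe, Gfi1, Runx2, Runx3 and Tal1), where 29.9% of all protein-coding genes had one in all 8. Every one of the 10 genes had an interval in at least 1 library, as did 47.4% of all protein-coding genes, and 4 of the 10 had one in 1 to 7 libraries, as did 17.6%. The median over the 10 genes of the mean percent of window covered was 42.3%, beside 14.1% over the 10379 genes with an interval in at least 1 library. These shares describe a list chosen with results of these data known, and no test was made of them.

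From the highest mean to the lowest, the order was Cebpe (84.9% ± 14.0, SD, n = 8 libraries), Gfi1 (78.8% ± 12.2), Cebpa (64.9% ± 17.3), Tal1 (59.6% ± 7.47), Cebpb (44.9% ± 32.2), Cebpd (39.8% ± 23.0), Runx3 (27.6% ± 6.44), Spi1 (6.03% ± 8.97), Runx2 (3.56% ± 0.939) and Runx1 (0.220% ± 0.623). In this order only 2 neighbouring pairs kept their rank in every library, namely Runx3 above Spi1 and Runx2 above Runx1. The remaining neighbours changed places in at least 2 libraries, for example Cebpe and Gfi1, where Cebpe was higher in 4 and lower in 3. Window length enters these values, since an interval of one width fills more of the window of a short gene than of a long one. The spans ran from 1.518 kb for Cebpb to 318.811 kb for Runx2.

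**Figure D1:**
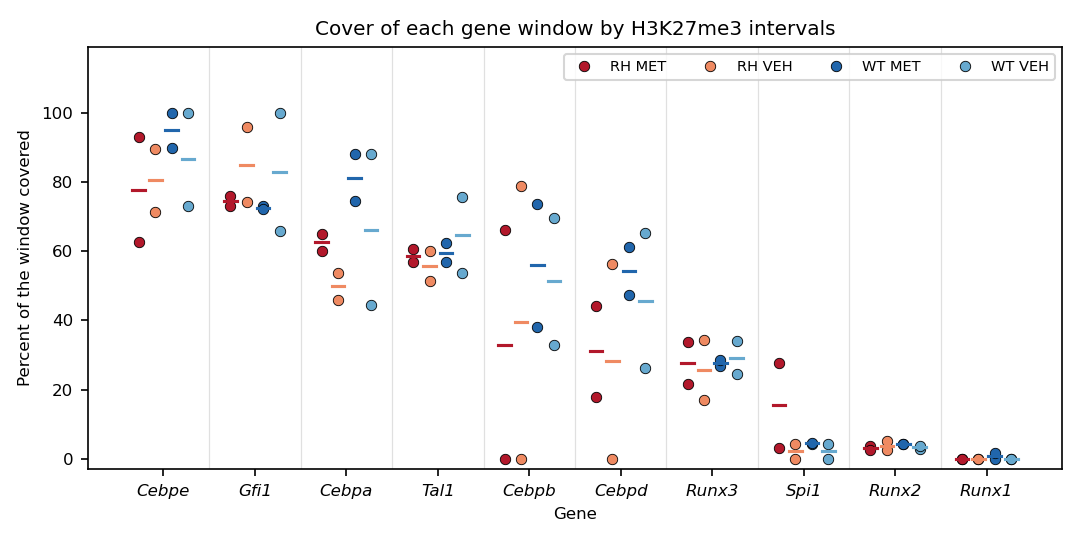
Percent of the window (gene span with 5 kb on both sides) covered by H3K27me3 intervals, one point per library, for the 10 genes, with libraries grouped as RH MET, RH VEH, WT MET and WT VEH. Cebpe and Gfi1 lie between 62.6% and 100% in all libraries, Runx1 lies at 0% in 7 of 8, and the libraries of the 4 groups are interspersed at most genes.

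All 4 C/EBP genes carried the mark over the gene body, but in different ways: the widest relative cover was at Cebpe, the highest summits were at Cebpa, and the intervals at Cebpb and Cebpd were missing from some libraries. C/EBPα is required for the step from common myeloid progenitors to granulocyte-monocyte progenitors, C/EBPβ acts in emergency granulopoiesis and macrophages, C/EBPδ in acute responses of several tissues, and C/EBPε in terminal granulocyte maturation.

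Cebpa (chr7:35119293-35121928, forward strand) had 1 interval in each library, which covered 60.1% and 64.9% of its window in RH MET 1 and 2, 45.9% and 53.8% in RH VEH 1 and 2, 74.4% and 88.1% in WT MET 1 and 2, and 88.1% and 44.3% in WT VEH 1 and 2. The lowest and the joint highest value both came from the WT VEH group, so that the groups overlapped. Of the span itself, 87.6% to 100% was covered. A stretch of 5.2 kb, from -2.892 to 2.307 kb relative to the start, was inside the interval of all 8 libraries. The upper edge varied most, between 2.307 and 11.507 kb after the start, and it was the 2 widest intervals, in WT MET 2 and WT VEH 1, that ran on beyond the window. The summits lay 0.484 to 1.369 kb after the start, within the gene, which has a single coding exon.

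Cebpa summit heights were 46 and 38 in RH MET 1 and 2, 14 and 33 in RH VEH, 55 and 51 in WT MET, and 36 and 42 in WT VEH. Ranked within their own library these summits stood at percentiles of 59.6 to 88.4. The height of 14 in RH VEH 1 was far below the next, 33 in RH VEH 2, and that library had the lowest heights in general.

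The 300 bases around the Cebpa start (250 before to 50 after, RefSeq, GRCm38.p6) are printed because all 8 intervals cover them. They are given 5′ to 3′ in the direction of transcription, with every CpG in capitals, as are the other CpG-marked sequences below. The window at chr7:35119043-35119342, forward strand, holds 29 CpG sites, and 17.2% of all 21263 promoter windows hold as many or more. Of those windows, 28.4% had an interval in all 8 libraries and 60.5% in none.

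Cebpa start: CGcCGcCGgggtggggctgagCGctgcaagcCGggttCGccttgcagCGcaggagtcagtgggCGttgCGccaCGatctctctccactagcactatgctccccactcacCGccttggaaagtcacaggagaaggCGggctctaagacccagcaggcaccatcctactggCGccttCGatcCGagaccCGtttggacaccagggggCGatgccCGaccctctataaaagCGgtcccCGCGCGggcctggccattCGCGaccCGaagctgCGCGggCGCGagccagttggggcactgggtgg

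Cebpb (chr2:167688915-167690432, forward strand) was covered over 66.0% and 0% of its window in RH MET 1 and 2, 0% and 78.9% in RH VEH 1 and 2, 73.7% and 38.2% in WT MET 1 and 2, and 69.5% and 33.0% in WT VEH 1 and 2. Both RH groups thus held 1 library with no interval, while the 4 WT libraries all had one. Where present, the interval covered 100% of the span and its summit height was 13 to 19. The stretch shared by the 6 libraries was 3.8 kb. Its start window held 50 CpG sites, a number reached by 1.10% of all promoter windows. Of the windows that reach it, 32.5% had an interval in all 8 libraries and 55.6% in none.

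Cebpd (chr16:15887286-15889545) was covered over 44.0% and 17.9% of its window in RH MET 1 and 2, 0% and 56.4% in RH VEH 1 and 2, 47.3% and 61.3% in WT MET 1 and 2, and 65.3% and 26.1% in WT VEH 1 and 2. Its only library without an interval was RH VEH 1. Summit heights were 19 and 17 in RH MET, 13 in RH VEH 2, 29 and 25 in WT MET, and 21 and 23 in WT VEH, so that every WT height was above every RH height listed. The span of Spidr, a DNA repair gene, begins inside the upper end of the Cebpd span, and up to 37.5% of the Cebpd interval (in WT MET 1) lay within Spidr.

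Cebpe (chr14:54710363-54712174) was covered over 62.6% and 92.9% of its window in RH MET 1 and 2, 71.4% and 89.5% in RH VEH 1 and 2, 89.7% and 100% in WT MET 1 and 2, and 100% and 73.1% in WT VEH 1 and 2. The span itself lay entirely within intervals in all 8 libraries. The summits were low, with heights of 10 to 23, and did not sit on the gene: the highest lay at -2.81 to -2.159 kb from the lower-coordinate end of the span, outside the gene, in all 8 libraries. Strand was not looked up for Cebpe, Cebpd and Spi1, so their positions are counted from the lower-coordinate end.

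**Figure D2:**
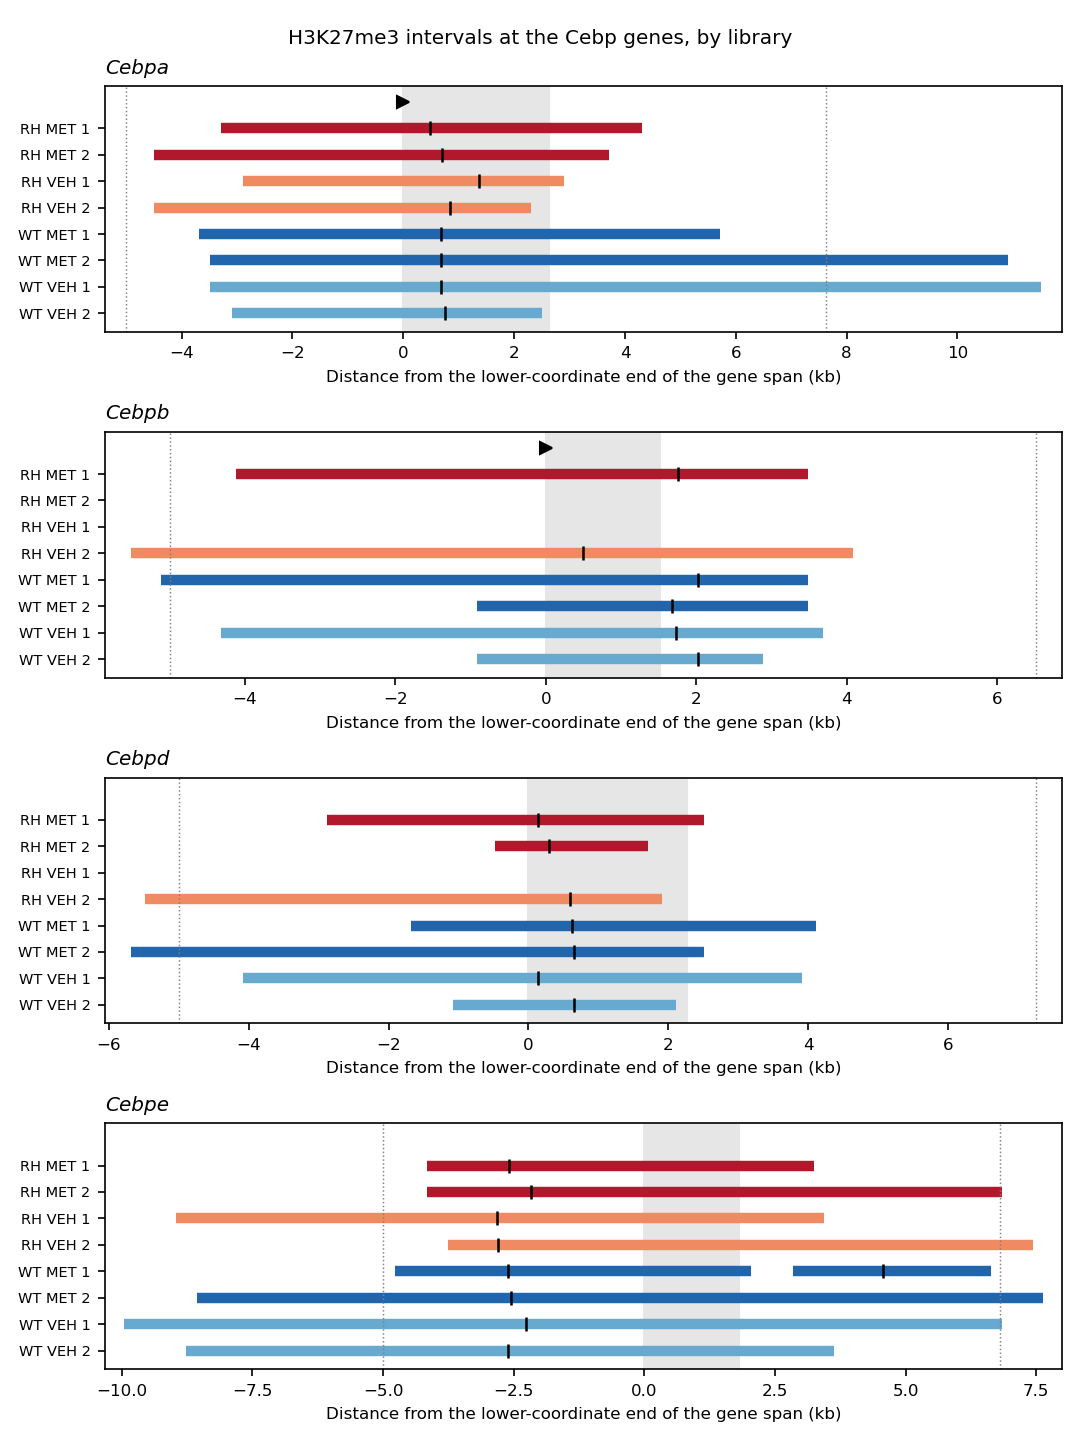
H3K27me3 intervals of the 8 libraries at Cebpa, Cebpb, Cebpd and Cebpe, drawn against distance in kb from the lower-coordinate end of each gene span, with summits marked. Intervals over Cebpa and Cebpe are present in all 8 rows, 2 rows lack one at Cebpb (RH MET 2 and RH VEH 1) and 1 row lacks one at Cebpd (RH VEH 1).

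Set side by side within libraries, Cebpe had more of its window covered than Cebpa in 8 of 8 libraries (mean difference of Cebpa minus Cebpe -20.0 percentage points ± 11.2, SD), and than Cebpd in 8 of 8. Cebpe was above Cebpb in 7 libraries and below it in RH MET 1 (62.6% at Cebpe, 66.0% at Cebpb). Cebpa was above Cebpb in 6 of 8 libraries and above Cebpd in 7 of 8. The order by height was different. The Cebpa summit was higher than that of Cebpe in 8 of 8 libraries, by 21.1 ± 9.17 units (SD), than that of Cebpb in the 6 libraries with an interval at both, and than that of Cebpd in 7 of 7. Cebpb and Cebpd did not keep an order in cover: Cebpb was above in 5 libraries, below in 2 and level in 1. Within the spans alone most values were at or near 100% and the order was largely lost, with Cebpe above Cebpa in 2 libraries and equal in 6.

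The 3 Runx genes differed in their cover. Runx1 had no interval in its span in any library, Runx2 had a compact one far downstream of its only listed start, and Runx3 had broad cover that reached its second listed start. No further start was listed for Runx2, so whether its interval lies at one could not be told here. Runx1, required for the emergence of blood stem cells and known to be active in such progenitors, has a human ortholog that is often mutated in leukemia.

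Runx1 (chr16:92601466-92826074, reverse strand) was covered over 0% of its window in all libraries except WT MET 2, where the value was 1.76%. That interval had a height of 13 and lay wholly outside the span, at -8.065 to -0.866 kb from its lower-coordinate end, beyond the end of the gene that is farther from its first start. Cover of the span was 0% in all 8 libraries.

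Runx2 (chr17:44495987-44814797, reverse strand) was covered over 3.59% and 2.37% of its window in RH MET 1 and 2, 2.49% and 4.99% in RH VEH 1 and 2, 4.32% and 4.20% in WT MET 1 and 2, and 2.80% and 3.71% in WT VEH 1 and 2. The low percentages stood beside high summits. Heights were 39 and 37 in RH MET 1 and 2, 22 and 37 in RH VEH, 46 and 54 in WT MET, and 44 and 43 in WT VEH. All 4 WT heights lay above all 4 RH heights. The 8 libraries shared 6.8 kb (chr17:44733201-44740000), and the highest summit lay 76.7 to 79.6 kb downstream of the listed start. A second, lower interval lay 200.6 to 201 kb downstream in 5 libraries (RH MET 1, RH VEH 2, WT MET 1, WT MET 2 and WT VEH 2), with heights of 12 to 16. No Runx2 interval reached Supt3, whose span overlaps the start region of Runx2.

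Runx3 (chr4:135120645-135177990, forward strand) was covered over 33.9% and 21.7% of its window in RH MET 1 and 2, 16.9% and 34.4% in RH VEH 1 and 2, 26.7% and 28.5% in WT MET 1 and 2, and 34.2% and 24.4% in WT VEH 1 and 2. The 2 extremes, 16.9% and 34.4%, came from the same group. Summit heights were 50 and 37 in RH MET, 24 and 29 in RH VEH, 40 and 40 in WT MET, and 33 and 31 in WT VEH. The highest summit was placed almost identically in the 8 libraries, 19.9 to 20.3 kb after the first start, a range of 0.416 kb.

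In 6 libraries a separate interval lay at the second start of Runx3, which is 31.9 kb after the first, and in RH VEH 2 and WT VEH 1 a single interval of 23.2 and 23 kb joined both places. The stretches common to all 8 libraries were 17.156 to 21.755 kb and 28.956 to 33.955 kb after the first start, and the second start lies inside the upper one. Summits of the separate intervals lay at -1.06 to -0.24 kb from that start, on its upstream side. The first start was overlapped in RH MET 1 only, by an interval of height 12.

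**Figure D3:**
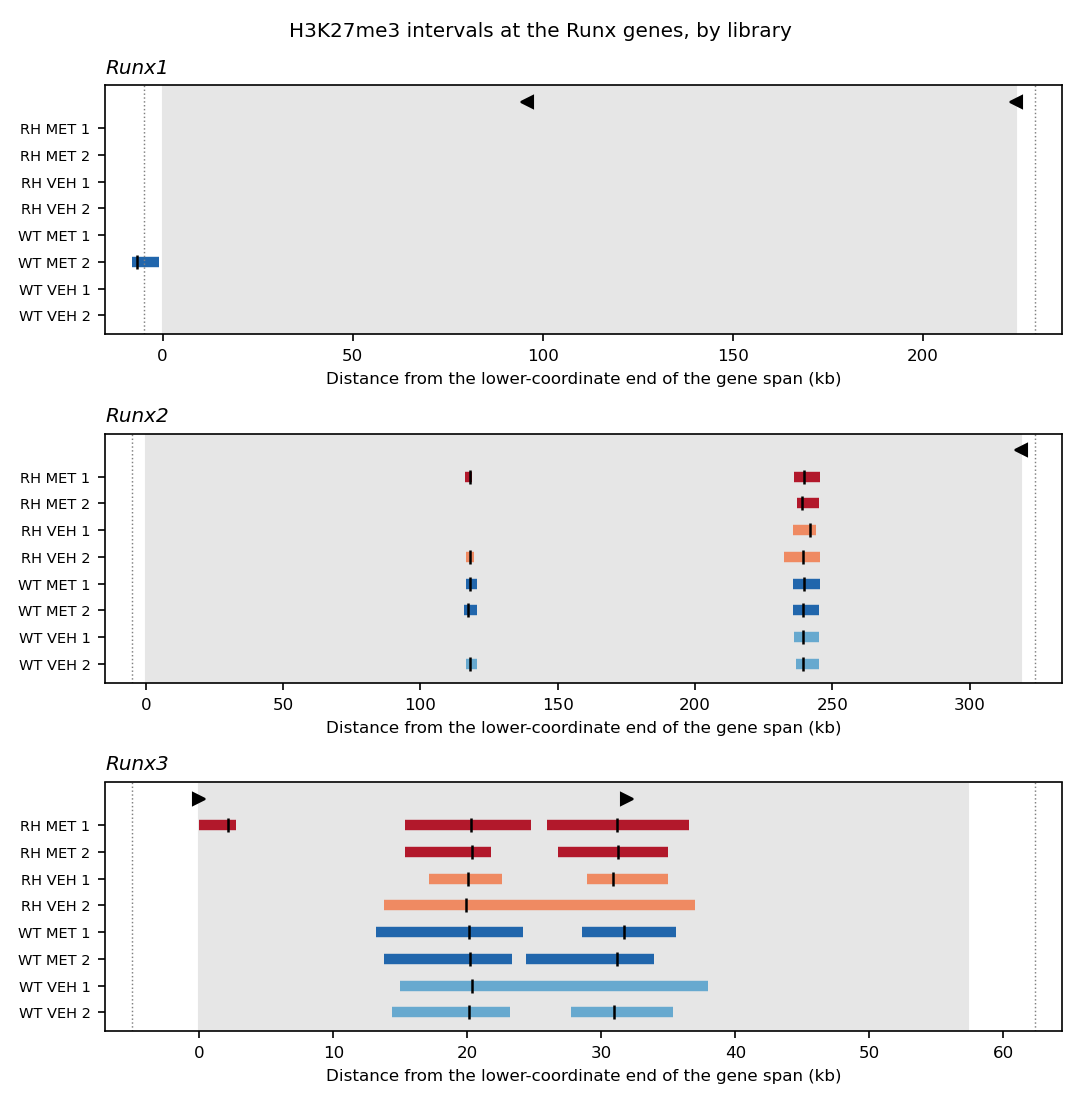
H3K27me3 intervals of the 8 libraries at Runx1, Runx2 and Runx3, drawn against distance in kb from the lower-coordinate end of each gene span, with summits marked. The Runx1 span is empty in all rows, Runx2 has one interval in every row at about the same place and a lower one in 5 rows, and Runx3 has intervals in every row around 20 kb and around its second start.

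The starts of the Runx genes differ in sequence as well. Mammalian Runx genes are transcribed from a distal and a proximal promoter. The distal starts listed for the 3 genes share a run of 18 bases, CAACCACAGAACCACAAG, which holds the hexamer ACCACA, the core that RUNX proteins bind, in tandem. Of the 21263 promoter windows searched on both strands, 3 held the whole run, and these were the first starts of Runx1, Runx2 and Runx3. ACCACA alone occurred in 15.0% of all windows. Counted from the start, the run began at base 26 in Runx1, at base 21 in Runx2 and at base -136, upstream of the start, in Runx3, and ACCACA, counted on both strands, occurred 2, 3 and 2 times in these windows. These windows held 2, 2 and 8 CpG sites, and an interval overlapped them in 0, 0 and 1 of 8 libraries. They are printed with the shared run in capitals (RefSeq, GRCm38.p6), from chr16:92826025-92826324 on the reverse strand, chr17:44814578-44814877 on the reverse strand and chr4:135120395-135120694 on the forward strand.

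Runx1 first start: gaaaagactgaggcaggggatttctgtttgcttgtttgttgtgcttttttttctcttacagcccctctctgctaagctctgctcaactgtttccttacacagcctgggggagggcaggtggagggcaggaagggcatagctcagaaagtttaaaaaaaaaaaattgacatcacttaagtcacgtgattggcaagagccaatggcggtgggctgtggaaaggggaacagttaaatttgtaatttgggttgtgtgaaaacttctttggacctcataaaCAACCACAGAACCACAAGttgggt
Runx2 first start: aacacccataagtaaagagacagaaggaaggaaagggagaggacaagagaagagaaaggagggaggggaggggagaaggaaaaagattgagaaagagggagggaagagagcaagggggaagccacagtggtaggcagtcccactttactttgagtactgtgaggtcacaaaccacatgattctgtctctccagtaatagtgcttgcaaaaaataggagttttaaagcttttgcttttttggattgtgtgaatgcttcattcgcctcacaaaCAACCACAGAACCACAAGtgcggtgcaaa
Runx3 first start: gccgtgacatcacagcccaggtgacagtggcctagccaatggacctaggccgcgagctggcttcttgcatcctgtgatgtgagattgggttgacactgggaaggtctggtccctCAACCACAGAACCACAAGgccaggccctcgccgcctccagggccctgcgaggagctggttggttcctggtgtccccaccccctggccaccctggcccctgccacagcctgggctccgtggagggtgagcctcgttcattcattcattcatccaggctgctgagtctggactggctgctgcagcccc

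The second starts of Runx1 and Runx3 lacked ACCACA and were rich in CpG, yet they differed in the mark. The Runx1 window held 35 CpG sites and was overlapped in 0 of 8 libraries, while the Runx3 window held 45 and was overlapped in 8 of 8. Of the promoter windows with at least 35 CpG sites, 30.9% had an interval in all 8 libraries and 57.7% in none, so that both patterns are common at this CpG content. Over all promoter windows, 19.3% had an interval in all 8 libraries and 67.6% in none, with medians of 19 and 10 CpG sites. The pair is printed because it shows CpG-rich starts of one family with and without the mark, Runx1 from chr16:92697280-92697579 on the reverse strand and Runx3 from chr4:135152295-135152594 on the forward strand, with each CpG in capitals.

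Runx1 second start: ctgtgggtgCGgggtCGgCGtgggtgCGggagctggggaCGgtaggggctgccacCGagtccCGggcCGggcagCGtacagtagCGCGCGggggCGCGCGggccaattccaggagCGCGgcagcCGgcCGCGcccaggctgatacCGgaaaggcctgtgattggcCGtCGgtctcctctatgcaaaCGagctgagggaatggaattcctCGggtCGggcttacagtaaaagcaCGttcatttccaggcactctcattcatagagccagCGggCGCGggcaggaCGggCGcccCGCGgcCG
Runx3 second start: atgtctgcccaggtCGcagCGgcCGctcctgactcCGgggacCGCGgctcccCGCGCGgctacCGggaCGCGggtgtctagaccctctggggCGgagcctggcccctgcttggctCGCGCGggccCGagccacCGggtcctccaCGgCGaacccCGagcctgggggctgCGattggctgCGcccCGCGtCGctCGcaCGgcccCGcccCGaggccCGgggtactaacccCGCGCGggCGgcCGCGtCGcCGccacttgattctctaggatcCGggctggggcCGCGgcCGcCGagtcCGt

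Within libraries, cover of the window ran Runx1 below Runx2 below Runx3 in 8 of 8 libraries, and the same held for cover of the span and for kb covered. The difference in length under intervals, Runx2 minus Runx3, was -6.88 ± 3.73 kb (SD, n = 8). By summit height Runx2 was above Runx3 in 5 libraries, below in 2 and equal in 1, so these 2 genes had no fixed order in height.

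Gfi1 and Tal1 were covered around their starts in all 8 libraries, and Spi1 had low cover, which lay outside its span in 5 of the 6 libraries with an interval. GFI1 is a zinc finger repressor that supports granulocytes and restrains stem cell cycling. TAL1 is a basic helix-loop-helix factor of stem, erythroid and megakaryocyte cells, and PU.1 drives macrophage, granulocyte and B cell fates in a dose-dependent way.

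Gfi1 (chr5:107716655-107725805, reverse strand) was covered over 73.1% and 76.0% of its window in RH MET 1 and 2, 74.2% and 95.8% in RH VEH 1 and 2, 73.1% and 72.1% in WT MET 1 and 2, and 100% and 65.8% in WT VEH 1 and 2. The 4 MET values lay within 4 percentage points of each other, from 72.1% to 76.0%, while the VEH values spread from 65.8% to 100%. Of the span, 96.2% to 100% was covered. Gfi1 had the highest summit of the 10 genes in every library, with heights of 64 and 63 in RH MET, 34 and 55 in RH VEH, 69 and 66 in WT MET, and 53 and 67 in WT VEH. Within their libraries these heights ranked at percentiles of 89.9 to 94.5. A shared stretch of 12.4 kb ran from 0.346 kb inside the lower end to beyond the upper end, where both listed starts lie.

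Tal1 (chr4:115056426-115071755, forward strand) was covered over 56.8% and 60.7% of its window in RH MET 1 and 2, 51.2% and 60.01% in RH VEH 1 and 2, 62.3% and 56.8% in WT MET 1 and 2, and 75.7% and 53.6% in WT VEH 1 and 2. The values were close except for WT VEH 1. Both listed starts, with 11 and 22 CpG sites in their windows, lay in intervals of all 8 libraries. In 6 libraries the highest summit lay within 0.407 kb of the first start, and in RH MET 2 and WT VEH 1 it lay 7.03 and 6.81 kb after it. Heights were 34 and 30 in RH MET, 18 and 20 in RH VEH, 36 and 36 in WT MET, and 29 and 27 in WT VEH, and all MET heights exceeded all VEH heights, by 1 unit at the closest.

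Spi1 (chr2:91082374-91115759) was covered over 27.7% and 3.23% of its window in RH MET 1 and 2, 0% and 4.21% in RH VEH 1 and 2, 4.21% and 4.67% in WT MET 1 and 2, and 0% and 4.21% in WT VEH 1 and 2. In 6 libraries an interval of height 12 to 19 lay before the lower end of the span, and those 6 shared 1.4 kb, at -4.573 to -3.174 kb from that end. The span itself was covered in RH MET 1 alone, over 24.6%, by an interval of height 15. No Spi1 interval lay in Mybpc3, a heart muscle gene that reaches into the window from the other side.

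**Figure D4:**
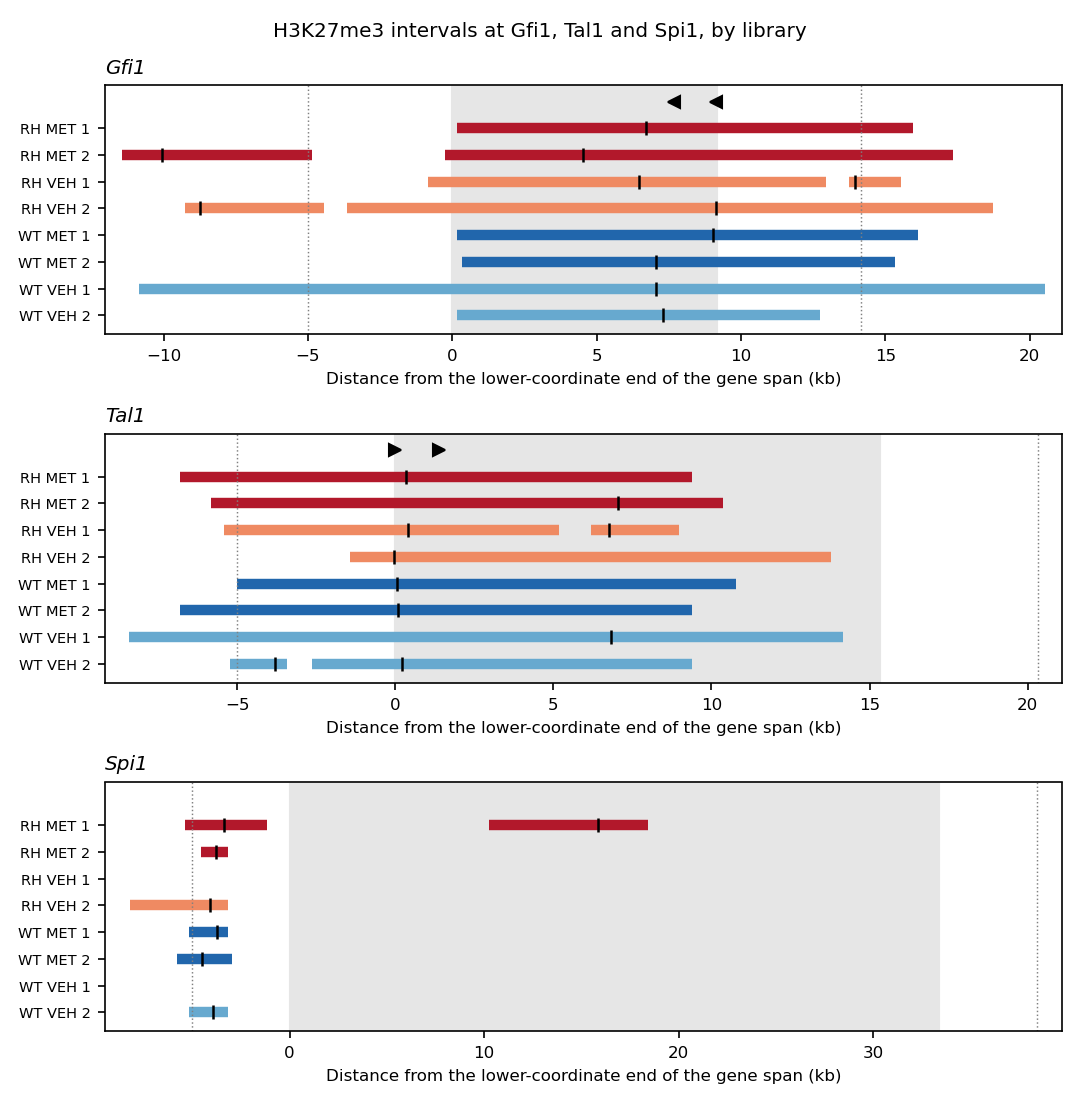
H3K27me3 intervals of the 8 libraries at Gfi1, Tal1 and Spi1, drawn against distance in kb from the lower-coordinate end of each gene span, with summits marked. Gfi1 and Tal1 are covered in all rows, and Spi1 has an interval inside its span in RH MET 1 only.

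For the genotype, the question was whether the mark at these genes differed between R878H and wild-type cells. In none of the 10 genes did the percent covered separate the 4 RH from the 4 WT libraries, where separated means that every library of one class lies above every library of the other. Among the 10379 genes with an interval in at least 1 library, 0.222% were separated with RH above and 3.66% with RH below. The lists of RH MET 1 and 2 and RH VEH 1 and 2 covered 122, 131, 80.0 and 155 Mb. Those of WT MET 1 and 2 and WT VEH 1 and 2 covered 148, 186, 142 and 145 Mb. The part of this in the differences below was not tested. Median cover was 42.3% for the 10 genes and 14.1% for genes with an interval. Differences of RH minus WT were negative for 8 of the 10 genes, with a median of -3.31 percentage points, beside -1.87 over the genes with an interval. With these flanks the 4 C/EBP genes had the largest, namely -20.4 points for Cebpd (29.6% ± 25.4 in RH, 49.99% ± 17.7 in WT, SD, n = 4 each), -17.5 for Cebpa (56.2% ± 8.22 in RH, 73.7% ± 20.6 in WT), -17.4 for Cebpb (36.2% ± 42.2 in RH, 53.6% ± 20.9 in WT) and -11.6 for Cebpe (79.1% ± 14.5 in RH, 90.7% ± 12.7 in WT). With 1 library left out, these ranged from -29.3 to -10.5 points for Cebpd, -27.3 to -12.7 for Cebpa, -31.6 to -5.29 for Cebpb and -17.5 to -6.10 for Cebpe. Over spans without flanks the differences were -33.2, -1.90, -50 and 0 points for Cebpd, Cebpa, Cebpb and Cebpe, so that Spi1, at 6.14, then exceeded Cebpa and Cebpe in size. With flanks, the two-sided exact permutation p was 0.229, 0.2, 0.543 and 0.229 for Cebpd, Cebpa, Cebpb and Cebpe. The Benjamini-Hochberg adjusted p over all 21887 genes was 1 for all 10 genes, and the design allowed none under 0.05.

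In percentage points of the window with flanks, the Runx genes, Tal1, Gfi1 and Spi1 differed less. Their windows are longer, from 19.151 kb for Gfi1 to 328.811 kb for Runx2, against 11.518 to 12.636 kb for the C/EBP genes. A change of the same length in kb gives fewer points in a longer window. The order of sizes is therefore one of points, here and for metformin below, and differences in kb were not tested. Differences of RH minus WT in percentage points were -0.441 for Runx1, -0.395 for Runx2, -1.71 for Runx3, -4.91 for Tal1, 2.02 for Gfi1 and 5.52 for Spi1, with exact permutation p of 0.486 to 1. The Spi1 value came from RH MET 1, and without that library it was -0.794. Across all protein-coding genes 403 had an unadjusted p under 0.05, the number that reach 0.0286, the smallest p that 4 against 4 allows. For any adjusted p under 0.05, more genes would have to reach it than the 10379 with an interval. No gene could therefore pass after adjustment, and 0 did.

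For metformin, the percent covered separated MET from VEH libraries at none of the 10 genes, beside 1.04% (MET above) and 0.154% (MET below) of the genes with an interval. With these flanks the largest differences of MET minus VEH were 13.8 percentage points for Cebpa (71.9% ± 12.3 in MET, 58.0% ± 20.5 in VEH, exact permutation p = 0.286), -10.4 for Gfi1 (73.6% ± 1.67 in MET, 83.9% ± 16.6 in VEH, exact permutation p = 0.343) and 7.85 for Spi1 (9.96% ± 11.9 in MET, 2.11% ± 2.43 in VEH, exact permutation p = 0.2), the last of which was 1.93 without RH MET 1. With each library left out in turn, the Cebpa difference ranged from 8.45 to 23.9 points and that of Gfi1 from -16.4 to -5.02, and over spans without flanks they were 4.32 and -1.34, while Cebpd had the largest difference, 24.4. For the remaining 7 genes the difference with flanks was between -1.01 and 5.71 points. The adjusted p was 1 for all 10 genes. Across all protein-coding genes 124 had an unadjusted p under 0.05. As for the genotype, none could pass after adjustment, and 0 did.

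With 2 libraries against 2 the smallest p is 0.333, so these comparisons are given without a test. In RH VEH against WT VEH none of the 10 genes was separated, beside 3% of genes with RH VEH above and 19.4% with RH VEH below. In RH MET against RH VEH, Cebpa was separated (60.1% and 64.9% in RH MET, 45.9% and 53.8% in RH VEH), where 13.6% of genes were separated with RH MET above and 4.38% with RH MET below. In WT MET against WT VEH, Runx2 was separated (4.32% and 4.20% in WT MET, 2.80% and 3.71% in WT VEH), where 18.6% of genes were separated with WT MET above and 7.82% with WT MET below. In RH MET against WT MET, Cebpa, Cebpd and Runx2 were separated with RH MET below, which is 3 of 10 beside 29.3% of genes, and 4.89% of genes were separated with RH MET above. The first and last of these comparisons share no library, but RH VEH, WT VEH, RH MET and WT MET each enter 2 of the 4.

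Summit height was compared in the same way, a choice made after the values had been seen. Of the 6 genes with an interval in all 8 libraries, Runx2 was separated between genotypes, at 22 to 39 in RH and 43 to 54 in WT (difference -13, exact permutation p = 0.0286, adjusted p = 0.605 over 6537 genes). The share of those genes separated with RH below was 1.51%, and with RH above 0%. Heights were lower in RH at large, with a median difference over these genes of -8.5. As a percentile within its library, Runx2 was also separated (77.6 to 84.2 in RH, 84.5 to 87.7 in WT, exact permutation p = 0.0286, adjusted p = 0.898), beside 2.71% of genes with RH below and 0.352% with RH above. Without RH VEH 1, the lowest RH library, the RH heights of Runx2 were 37 to 39. When a missing interval was counted as 0, which takes in all 10 genes, Cebpd joined Runx2 (0 to 19 in RH, 21 to 29 in WT, exact permutation p = 0.0286, adjusted p = 0.756), beside 1.69% of genes with RH below and 0.0867% with RH above.

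Between treatments, the heights of Runx3 (37 to 50 in MET, 24 to 33 in VEH, difference 12.5) and Tal1 (30 to 36 in MET, 18 to 29 in VEH, difference 10.5) were separated, each with an exact permutation p of 0.0286 and an adjusted p of 0.150. That is 2 of 6 genes, beside 16.9% of all genes called in all 8 libraries with MET above and 0% with MET below. Heights of those genes were higher in MET at large, by a median of 13.75, which is more than the difference of either gene. As a percentile within the library Tal1 stayed separated, narrowly (75.529 to 79.4 in MET, 65.5 to 75.527 in VEH, exact permutation p = 0.0286, adjusted p = 0.351) and Runx3 did not. The shares of genes were then 7.99% with MET above and 0.153% with MET below. With a missing interval as 0, the same 2 of 10 genes were separated, beside 12.2% of genes with MET above and 0.00963% with MET below.

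**Figure D5:**
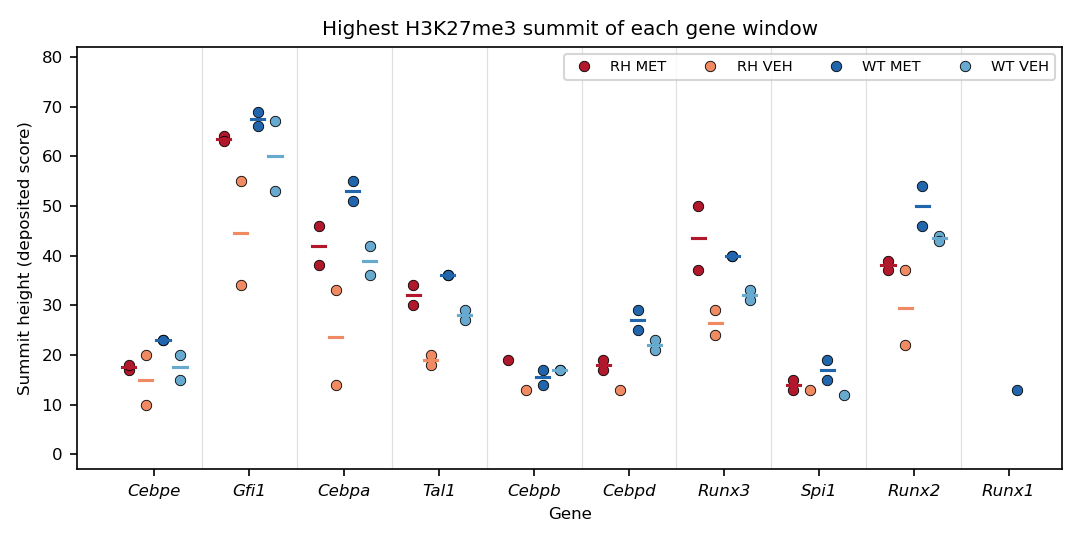
Highest summit height in the window of each gene, one point per library, with libraries grouped as RH MET, RH VEH, WT MET and WT VEH; libraries with no interval have no point. Gfi1 is the highest gene in each library, the 4 RH libraries lie below the 4 WT libraries at Runx2 (22 to 39 and 43 to 54), and RH VEH 1 is lowest or joint lowest at several genes.

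Beside the 10 genes, 35 other blood transcription factors were read in the same way, among them partners of these proteins and members of the same families. Intervals were present in all 8 libraries at 16, in some at 7 and in none at 12, and those with none included Gata1, Ikzf1, Etv6, Lmo2, Nfe2, Tcf3 and the C/EBP genes Cebpg and Cebpz. Of all protein-coding genes, 29.9% had an interval in all 8 libraries and 17.6% in 1 to 7. The median cover of the 35 factors, the 12 with no interval included, was 6.93%, and 7 of them had a mean of at least 50%. The median of 14.1% given above is over genes with an interval only, so the 2 medians are not alike. Neither the median nor the share at 50% was computed over all protein-coding genes. Gata2, a zinc finger factor of stem and mast cells, was the single one separated between genotypes, at 79.1%, 90.4%, 77.4% and 92.9% in RH MET 1, RH MET 2, RH VEH 1 and RH VEH 2, against 75.7%, 76.5%, 74.8% and 72.2% in WT MET 1, WT MET 2, WT VEH 1 and WT VEH 2 (exact permutation p = 0.0286, adjusted p = 1). Ldb1, the scaffold that links TAL1 to LMO2, was the single one separated between treatments, with 11.6% and 11.6% in RH MET and 10.5% and 18.3% in WT MET, against 0% and 0% in RH VEH and 0% and 2.54% in WT VEH (exact permutation p = 0.0286, adjusted p = 1). Of the genes with an interval, 0.222% were separated with RH above WT and 3.66% with RH below. For treatment, 1.04% were separated with MET above VEH and 0.154% with MET below. Cbfb, the common partner of all 3 RUNX proteins, was covered over 5.58% to 11.9% of its window in all 8 libraries.

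For each of the 6 genes with an interval in all 8 libraries, the nearest genes in that list were taken by the mean absolute difference in percent covered over the 8 libraries. Gfi1 was nearest to Gata2 (8.13 points), Maf (9.92) and Fos (11.6), and Cebpe to Gata2 (11.5) and Fos (12.01). Tal1 was nearest to Klf4 (6.53), Egr2 (7.93) and Maf (9.91), and Cebpa to the same genes, Klf4 (14.0), Egr2 (14.4) and Maf (15.0). Runx3 was nearest to Tal2 (5.53), Irf8 (7.001) and Erg (12.4), and Runx2 to Ets1 (3.38), Cbfa2t3 (3.40) and Cbfa2t2 (3.56), the last of which had no interval. This is a likeness of levels in libraries that share their own breadth of calling, and it is given as a description.

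Of 16 myeloid genes that C/EBP, PU.1 or RUNX factors are known to activate, intervals lay in all 8 libraries at 2 (Prtn3 and Cd14). They lay in some libraries at 7 genes and in none at 7 (Csf1r, Csf2ra, Ctsg, Lyz2, Cd68, Ltf and Ngp). The median cover of the 16 genes, those with no interval included, was 1.52%. Of all protein-coding genes, 29.9% had an interval in all 8 libraries and 17.6% in 1 to 7. No gene of the myeloid list was separated in either contrast. For the enrichment markers, Kit was covered over 2.18% and 0% in RH MET and 0% and 0% in RH VEH, against 6.10% and 9.16% in WT MET and 7.63% and 8.94% in WT VEH, which separates the genotypes with RH below (exact permutation p = 0.0286, adjusted p = 1), and Cd34 was covered over 0% to 14.2% with an interval in 6 libraries. Beside Kit, 3.66% of the genes with an interval were separated with RH below WT. Intervals lay in all 8 libraries at 6 of 8 bone and stromal markers, 2 of 4 fat cell, 3 of 5 T cell, 2 of 4 B cell and 1 of 4 endothelial markers, beside 29.9% of all protein-coding genes. The mean cover of the stromal list was 35.4% to 46.7% in RH and 44.4% to 46.0% in WT libraries. Within it, Bglap and Ibsp were at 0 throughout. Mean cover was 96.2% at Sp7, 94.4% at Col1a1, 90.9% at Cxcl12, 43.9% at Alpl, 10.4% at Col1a2 and 8.92% at Lepr. H3K27me3 cover does not measure how many such cells were present, and their part in the results was not tested.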

How the data were processed

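H3K27me3 ChIP was sequenced from formaldehyde-fixed cells in 8 libraries, beside 1 input library that is not analysed here. Per the submitters' processing notes, BWA 0.7.12, bcl2fastq 2.20 and the build mm10 were used. How intervals were called, filtered and scaled for depth, and what the input was used for, is not given in the sources used here. Per the file headers, the authors deposited intervals and summits for each library separately, so replicates were not pooled. The only value per summit is a score, the summit height, deposited by the authors in whole numbers with no unit given. It is the authors' own, may not be comparable between libraries, and served to describe, rank or filter intervals. Read depth is unknown, so no counting interval is given, and the number of libraries limits the precision.

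Interval edges lie on a 200 bp grid and were read as including both ends. Gene spans came from RefSeq on GRCm38.p6, the assembly of mm10, and all 10 genes were matched. The percent of each window (span with 5 kb flanks) under intervals was computed for 21887 protein-coding genes, and a gene was called where at least 1 bp overlapped. Classes of 4 libraries were compared by the difference of means with a two-sided exact permutation test over all 70 assignments, adjusted over all genes by Benjamini-Hochberg with a threshold of 0.05. Summit heights were tested alike. Promoter windows (250 bases before to 50 after a start) came from RefSeq; 7 of the 10 genes had at least 1. Python 3.11.15, NumPy 2.4.6, SciPy 1.17.1 and matplotlib 3.10.9 were used, and the tests were tried on simulated data.

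The 10 genes, the lists and the tests were chosen with earlier results of these data known. The text names all 10 genes, their overlapping neighbours, list genes separated in a contrast of 4 against 4, the 3 list genes nearest to each gene called in all 8 libraries, and the anchors, except for 1 item that is not reported here; other list genes named are the members of a count. Alternatives were spans without flanks, 10 kb flanks, summits of at least 15, equal numbers of intervals, each library left out, restricted assignments, and 10% of the window as the limit for a call; comparisons of 2 against 2 under these settings and all comparisons of height were added after seeing the data.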

Additional observations from a re-analysis of the deposited data

Results flagged for a closer look

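A library was singled out where, among 4 libraries of a genotype or treatment, its gap to the nearest value took more of the whole range than Dixon's 95% limit. Up to 80 sets of 4 were looked at and 8 gave such a library. That limit stands for about 1 in 20 sets of independent, continuous values. These sets share libraries and some hold tied values, so the count of 8 cannot be compared with it. RH MET 1 stood apart at Spi1 with 27.7% of the window covered, both among the RH and among the MET libraries. WT VEH 1 stood apart among the WT libraries at Spi1 with 0%. WT MET 2 stood apart at Runx1 with 1.76%, among the WT and among the MET libraries, as the only library with any cover. RH VEH 2 stood apart among the RH libraries at Gfi1 with 95.8%. By summit height, RH VEH 1 stood apart among the RH libraries at Runx2 with 22, and WT MET 2 among the WT libraries at Cebpb with 14. RH VEH 1 was also the library with the fewest intervals, 11620, and the lowest median summit height, 12. The part of that in its Runx2 height was not tested.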

How the results depend on the processing

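The 20 differences in percent covered (10 genes, RH minus WT and MET minus VEH) gave 280 values under the alternatives. Of these, 40 equal the reported difference by construction, 204 kept its direction, 11 were 0, 25 turned it and 0 passed the threshold, with an adjusted p of 1 throughout. In the reported setting and with a library left out, no gene could pass it. Leaving out a library accounted for 23 of the turns; there the RH minus WT difference ranged from -0.794 to 8.45 points for Spi1, -3.32 to 9.44 for Gfi1 and -4.28 to 1.56 for Runx3, and the MET minus VEH difference from -16.0 to 13.95 for Cebpb, -6.60 to 15.1 for Cebpd, -1.76 to 10.7 for Cebpe, -0.213 to 0.618 for Runx2, -3.29 to 2.55 for Runx3 and -3.98 to 4.18 for Tal1. The others were MET minus VEH for Cebpb, 9.30 with summits of at least 15, and for Cebpe, -5.96 with 10 kb flanks; the cause was not tested. A summit minimum of 15 kept 38.8% of intervals in RH VEH 1 and 62.1% in WT MET 2. Leaving out 1 library, 0 to 1 genes were separated in RH against WT and in MET against VEH, in both cases Cebpa (without WT VEH 2 and without WT VEH 1). With 2 against 2, spans without flanks gave 1 gene for RH VEH against WT VEH, 0 for RH MET against RH VEH and 1 for RH MET against WT MET, 10 kb flanks gave 3 for RH MET against RH VEH, and summits of at least 15 gave 2 for each of RH VEH against WT VEH, RH MET against RH VEH and WT MET against WT VEH. Leaving out a library there, which sets 1 library against 2, gave 2 to 6, 4 to 6, 2 to 8 and 5 to 7 genes for RH VEH against WT VEH, RH MET against RH VEH, WT MET against WT VEH and RH MET against WT MET. By height, leaving out a library gave 1 to 2 genes in RH against WT and 2 to 4 in MET against VEH, by percentile 1 to 2 and 1 to 2, and with no interval as 0 from 2 to 3 and from 2 to 4. No share over all genes was computed for the counts of separated genes under these alternatives. They therefore cannot be read as results about the 10 genes. With 1 library against 2, many genes can separate without any difference between groups. The number of genes called in all 8 libraries was 4 with summits of at least 15 and 5 where 10% of the window was required. No share over all genes was computed at these stricter settings. The 29.9% of the reported setting cannot be set beside these counts. Over spans without flanks, where ties at 100% are frequent, Cebpa was above Cebpb in 2 libraries and below it in 2. Cebpb was above Cebpd in 2 and below it in 1. Cebpa was above Cebpd in 4, and Cebpe above Cebpa in 2, above Cebpb in 2 and above Cebpd in 4, each with 0 in the other order. The Runx order held in 8 libraries under each of the 4 alternatives. Deviations of same-numbered libraries correlated at -0.0203 to 0.227 over the 6 pairs of groups, so the numbers were not taken to pair libraries. With a replicate block, whose 16 assignments cannot give a p under the threshold, the differences are the same by construction (-17.5 points for Cebpa, RH minus WT), and the adjusted p of all 10 genes was 1 in both contrasts. The 36 assignments within treatment or genotype allow no p below 0.0556 and could not pass either.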
